A study of Homo sapiens with 8 samples.

Results

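The inhibitors of cyclin-dependent kinases were followed in EA.hy926 cells from which an endothelial enhancer had been deleted. The genes were chosen by name, as CDKN1A, CDKN1B, CDKN1C, CDKN2A, CDKN2B, CDKN2C, CDKN2D and CDKN3, which makes 8 of the 27945 genes in the deposited table, and the transcript with the highest mean level stood for each gene. EA.hy926 is a hybrid line made by fusing human umbilical vein endothelial cells with A549 lung carcinoma cells. The enhancers E2 and SE12313-b belong to the same super-enhancer, SE12313, and each was cut out with Cas9 ribonucleoprotein and a pair of flanking guide RNAs. E2 drove reporters in endothelial cells, whereas SE12313-b was inactive in such assays and served the study as a negative control. Libraries of total RNA, freed of ribosomal RNA, came from 3 clonal lines lacking E2 (ΔE2), 3 clonal lines lacking SE12313-b (ΔSE12313-b) and control EA.hy926 cells (2 libraries). Each line grew from a single cell, and for the control RNA nothing states separate cultures, so p values measure only the spread between these libraries. Exposure to Cas9 and growth from a single cell came with the deletion in every clone, and neither is described for the controls. In a comparison with the controls these cannot be told apart from the deletion itself. All groups were EA.hy926 kept in the same medium. The controls of the study's proliferation assay had taken up guide RNAs and grew alongside the clones, but whether the sequenced controls were the same cells is not stated.

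Cyclin-dependent kinases drive cells from G1 into S phase and on into mitosis, and small inhibitory proteins hold them back. Proteins of the CIP/KIP family (p21 from CDKN1A, p27 from CDKN1B and p57 from CDKN1C) bind complexes of cyclins with CDK2 and related kinases. The INK4 family (p16 from CDKN2A, p15 from CDKN2B, p18 from CDKN2C and p19 from CDKN2D) binds CDK4 and CDK6 and keeps them from D-type cyclins, so that the retinoblastoma protein stays active and E2F factors are restrained. The product of CDKN3 is a phosphatase that acts on CDK2 and that, unlike the others, is best known as a transcript of dividing cells. In endothelium, p21 and p27 are known to accompany growth arrest, and p16 to accumulate with ageing in culture.

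Levels are given as FPKM, fragments per kilobase of transcript scaled to the reads of the library, so that levels of different genes can be set side by side. Libraries held 12067558 to 19101154 reads, and the reads behind each FPKM were recovered from the table. A gene was tested if it reached 0.5 FPKM in at least 2 of the 8 libraries, which 13789 genes did. The test was limma's moderated test on log2(FPKM + 0.1), with p values adjusted by the Benjamini-Hochberg method over all genes tested. A gene passed the test with an adjusted p under 0.05, and it was a DEG if it also changed by at least 2-fold. Fold changes refer to the log2(FPKM + 0.1) scale, which understates the change of low genes.

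Of the 8 inhibitor genes 5 were tested, namely CDKN1A, CDKN1B, CDKN2C, CDKN2D and CDKN3, and the other 3 had at most 1 read in any library. CDKN2C passed the minimum only because of the clones, since both control libraries were below 0.5 FPKM, so a difference was built into its being tested. Relative to the controls, CDKN1A, which had the most mRNA of the family in each library, was 1.95-fold lower in ΔE2 and 2.30-fold lower in ΔSE12313-b. CDKN2C was 11.1-fold and 9.63-fold higher, and CDKN3 was 17.0-fold and 17.2-fold higher. CDKN1B fell by 1.60-fold in ΔE2, and its level in ΔE2 was also below that in ΔSE12313-b when the deletions were tested against each other. CDKN2D had log2 fold changes of 0.15 and 0.38, the smallest of the 5 in ΔE2.

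**Figure D1:**
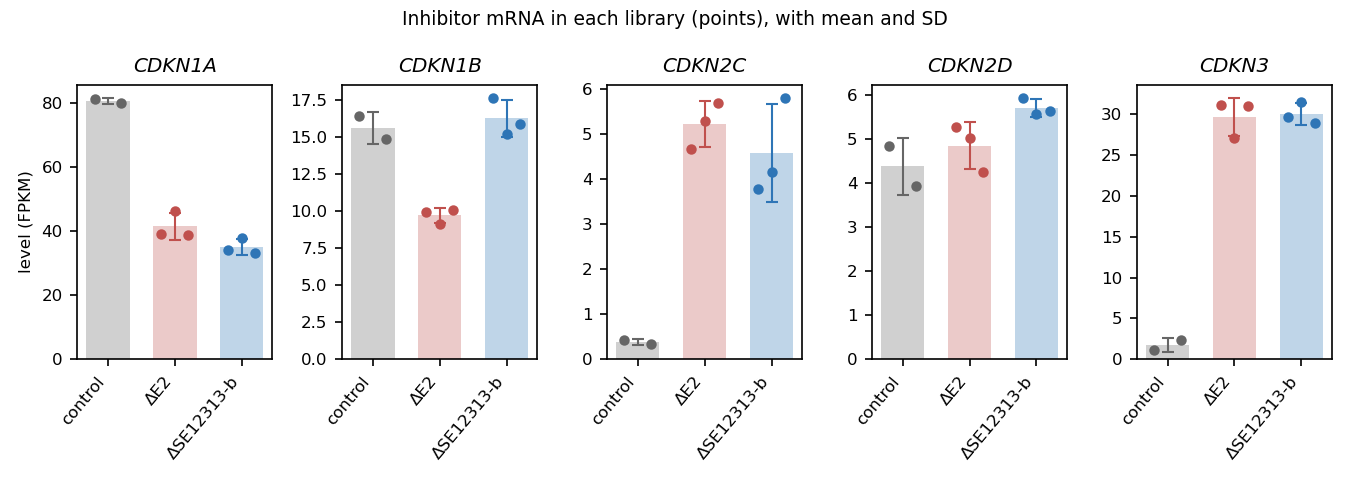
Level of the 5 inhibitor genes tested, in FPKM on linear axes from 0, in control, ΔE2 and ΔSE12313-b libraries. Points are libraries, bars are means and error bars are SD (2 control libraries, 3 clones per deletion). All 6 clones lie below both controls for CDKN1A and above both for CDKN2C and CDKN3, whereas the ΔE2 clones alone lie below the controls for CDKN1B.

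The start regions of 3 of these genes are shown because their levels moved in different directions, so that the letters upstream of each can be read beside its values. These genes were picked after the values were seen. CDKN1B was lower in ΔE2 only, and the start of CDKN1A, which was lower in both deletions, is not shown. Each run covers 250 bases before to 50 bases after the start of a transcript in the deposited table, and was read 5′ to 3′ on the gene's strand from GRCh37, the build of the files. Capitals mark matches, on either strand, to an E2F motif (TTCCCGC or TTCGCGC or TTGCCGC or TTGGCGC), to the cell cycle genes homology region (TTTGAA), to a CCAAT box (CCAAT) or to a TATA box (TATAAA). GC boxes (GGGCGG), which can share letters with an E2F match, were searched as well and left in lower case. The transcripts are NM_001130851 of CDKN3 at chr14:54863423-54863722 (plus strand), the upstream start NM_001262 of CDKN2C at chr1:51434117-51434416 (plus) and NM_004064 of CDKN1B at chr12:12869954-12870253 (plus).
CDKN3: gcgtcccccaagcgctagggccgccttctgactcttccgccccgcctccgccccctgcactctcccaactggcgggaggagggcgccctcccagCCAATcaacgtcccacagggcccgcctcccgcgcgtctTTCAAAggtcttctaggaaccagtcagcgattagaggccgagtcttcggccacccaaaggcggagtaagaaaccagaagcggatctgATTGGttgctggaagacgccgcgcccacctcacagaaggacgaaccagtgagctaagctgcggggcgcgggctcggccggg
CDKN2C: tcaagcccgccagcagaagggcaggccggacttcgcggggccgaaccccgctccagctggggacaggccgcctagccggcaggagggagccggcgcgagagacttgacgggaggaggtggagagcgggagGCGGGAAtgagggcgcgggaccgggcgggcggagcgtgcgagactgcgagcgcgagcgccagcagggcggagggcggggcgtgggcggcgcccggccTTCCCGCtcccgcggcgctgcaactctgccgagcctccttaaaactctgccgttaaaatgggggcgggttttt
CDKN1B: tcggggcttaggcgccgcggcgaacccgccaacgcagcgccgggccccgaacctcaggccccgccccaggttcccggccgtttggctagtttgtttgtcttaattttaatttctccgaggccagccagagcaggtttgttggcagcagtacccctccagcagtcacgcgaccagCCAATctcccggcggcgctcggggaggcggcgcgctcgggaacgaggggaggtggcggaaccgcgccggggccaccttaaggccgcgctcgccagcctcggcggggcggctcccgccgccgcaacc

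In the CDKN3 run the homology region stands on the minus strand with its first base at position -118, between CCAAT boxes at -156 (plus) and -31 (minus), and there are GC boxes at -214 and -203. Elements of this kind are known from genes transcribed in G2 and mitosis. Of the runs of all 13789 genes tested, cut in the same way at the transcript that stood for each gene, 11.3% hold the homology region and 36.4% a CCAAT box. The upstream start of CDKN2C holds E2F motifs at -120 (minus) and -23 (plus), beside 6 GC boxes, and 17.7% of the tested genes' runs hold an E2F motif. The start of NM_078626, the CDKN2C transcript that stood for the gene, holds none of the 5 motifs. CDKN1B holds 1 CCAAT box at -76 (plus) with GC boxes at -190 and 28. GC boxes occur in 61.5% of the runs and a TATA box in 7.77%, and no start printed here holds a TATA box. A match says only that the letters are there, and none says only that they are absent from this window.

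CDKN1A encodes p21, which binds cyclin and CDK2 complexes, and lies at chr6:36644237-36655116 in band 6p21.2. The 2 control libraries had 81.5 and 79.9 FPKM. The ΔE2 clones had 39.1, 46.4 and 39.0 FPKM, and the ΔSE12313-b clones had 34.1, 37.8 and 33.2 FPKM. The controls thus lay above all 6 clones, and each ΔE2 clone lay above each ΔSE12313-b clone. Between 1108 and 2171 reads stood behind each of these values. The means were 80.7 ± 1.08 FPKM (SD, n = 2) for the controls, 41.5 ± 4.26 (SD, n = 3) for the ΔE2 clones and 35.0 ± 2.41 (SD, n = 3) for the ΔSE12313-b clones. Its log2 fold change was -0.96 (SE 0.10, adjusted p = 0.000131) without E2 and -1.20 (SE 0.10, adjusted p = 3.25e-05) in ΔSE12313-b. In ΔE2 it passed the test and fell just short of 2-fold, with a 95% interval from -1.19 to -0.74, so that CDKN1A counted as a DEG only in ΔSE12313-b. Between the deletions the log2 difference was 0.24, with a 95% interval from 0.04 to 0.44, and it missed the threshold (adjusted p = 0.0799) but passed it after centring or quantile normalization (0.37 in both, adjusted p = 0.0208 and 0.0350). In bulk RNA, fewer cells that contain a transcript and less of it per cell cannot be told apart.

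The table lists 5 transcripts of CDKN1A, which differ in their first exons and share nearly all of their reads. Their levels were 72.9 to 81.5 FPKM in the controls, 35.6 to 46.4 in the ΔE2 clones and 30.3 to 37.8 in the ΔSE12313-b clones, and each transcript kept the same order of groups. The starts could therefore not be told apart by level. The noncoding transcript DINOL overlaps CDKN1A on the opposite strand and was at 0 to 0.436 FPKM across the 8 libraries. How strands were handled in the counting is not given in the sources used here, and at these levels DINOL reads are few beside those of CDKN1A.

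CDKN1B encodes p27, which binds cyclin E with CDK2 and is known to be high in resting cells, and lies at chr12:12870204-12875316 in band 12p13.1. The controls had 16.4 and 14.8 FPKM. The clones without E2 had 9.94, 9.14 and 10.0 FPKM, and those without SE12313-b had 17.6, 15.2 and 15.9 FPKM. The ΔE2 clones thus lay below all other libraries, and the ΔSE12313-b clones overlapped the controls. Means were 15.6 ± 1.10 FPKM (SD, n = 2) for the controls, 9.71 ± 0.492 (SD, n = 3) for the ΔE2 clones and 16.2 ± 1.26 (SD, n = 3) for the ΔSE12313-b clones, from 344 to 714 reads per library. CDKN1B fell by 0.68 on the log2 scale in ΔE2 (SE 0.09, adjusted p = 0.000628), which is under the limit for a DEG. In ΔSE12313-b the log2 fold change was 0.06 (SE 0.09, adjusted p = 0.625), with a 95% interval from -0.16 to 0.27. After quantile normalization this value was -0.34 and passed the test (adjusted p = 0.0136). Tested directly, CDKN1B was 1.66-fold lower in ΔE2 than in ΔSE12313-b (log2 difference -0.73, SE 0.08, 95% interval from -0.93 to -0.54, adjusted p = 0.00130).

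Between the deletions, genes around CDKN1B on 12p were also mostly lower in ΔE2. Of the 17 other genes tested that start within 1 Mb of CDKN1B, 15 had a lower value in ΔE2 than in ΔSE12313-b, beside 64.2% of all genes, and 9 of them had an adjusted p under 0.05, beside 19.3% of all genes. Their median log2 difference was -0.50, that of the 155 other protein-coding genes of 12p was -0.42, and that of all genes was -0.11. CDKN1B stood at the 23.9 percentile of its arm in this comparison, which is low in the arm without being at its edge. Counts were similar around CDKN1A, although CDKN1A itself had a higher value in ΔE2. There 15 of 18 genes were lower, and 7 lower and 1 higher had an adjusted p under 0.05. Against the controls the median of the neighbours of CDKN1B was above CDKN1B itself in each deletion. Like CDKN1B, these neighbours had a higher value in ΔSE12313-b than in ΔE2 at the median. In ΔE2 their median was 0.05, with 4 lower and 4 higher at an adjusted p under 0.05, beside -0.68 for CDKN1B, and in ΔSE12313-b it was 0.64, with 2 lower and 10 higher, beside 0.06. The median of 12p was -0.10 in ΔE2 and 0.45 in ΔSE12313-b, with all genes at 0.14 and 0.27. The part of the region in the CDKN1B difference was not tested.

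CDKN1C encodes p57, an imprinted inhibitor on 11p15.4 (chr11:2904448-2906995, minus strand). It had 0 reads in 7 libraries and 1 read in the second ΔSE12313-b clone, where 0.039 FPKM was listed. A count of 3 reads would stand for 0.0896 to 0.142 FPKM, depending on the library, so the depth allows levels up to there, and such floors cover counting error only. Among its neighbours, KCNQ1 was at 0 FPKM in all groups, and KCNQ1OT1, the noncoding RNA that silences the cluster, had means of 0.0865 FPKM in control, 0.134 in ΔE2 and 0.0780 in ΔSE12313-b. The other neighbours were transcribed. PHLDA2 had means of 11.1, 9.46 and 20.5 FPKM in control, ΔE2 and ΔSE12313-b, with a log2 fold change of 0.88 in ΔSE12313-b (adjusted p = 0.0145). SLC22A18 had means of 4.15, 0.499 and 2.19 FPKM and fell in ΔE2 (log2 fold change -2.89, SE 0.30, adjusted p = 0.00014). NAP1L4, a histone chaperone, had means of 33.5, 54.9 and 67.2 FPKM and rose in ΔSE12313-b (log2 fold change 1.00, SE 0.06, adjusted p = 8.1e-06).

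CDKN2A and CDKN2B, the INK4 genes of 9p21.3, were not detected. CDKN2A (chr9:21967751-21975132, minus strand) had 0 reads in each of the 8 libraries on all of its 4 transcripts, including NM_058195, which encodes p14ARF. For CDKN2A 3 reads would stand for 0.126 to 0.199 FPKM. CDKN2B (chr9:22002902-22009312, minus strand) also had 0 reads throughout, where 3 reads would stand for 0.0407 to 0.0645 FPKM. At this depth no difference between groups could be seen for either gene. The antisense RNA CDKN2B-AS1, which overlaps CDKN2B, and CDKN2A-DT, which overlaps CDKN2A on the opposite strand, were at 0 in all libraries too. MTAP, the next gene along the chromosome, had 32 to 58 reads per library and means of 0.793, 0.605 and 0.528 FPKM in control, ΔE2 and ΔSE12313-b, and it did not pass the test in ΔE2 (adjusted p = 0.358) or in ΔSE12313-b (adjusted p = 0.149).

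CDKN2C encodes p18, which restrains CDK4 and CDK6, and lies at chr1:51435642-51440309 in band 1p32.3. The controls had 0.434 and 0.327 FPKM, which rest on 7 and 5 reads. In the ΔE2 clones the levels were 4.66, 5.29 and 5.67 FPKM from 98 to 115 reads, and in the ΔSE12313-b clones 3.77, 4.15 and 5.80 FPKM from 77 to 117 reads. Both sets of clones lay apart from the controls and overlapped each other. The means were 0.381 ± 0.0757 FPKM (SD, n = 2), 5.21 ± 0.510 (SD, n = 3) and 4.57 ± 1.08 (SD, n = 3). The clones lacking E2 had a log2 fold change of 3.47 (SE 0.20, adjusted p = 7.44e-06), which compares with 3.27 (SE 0.20, adjusted p = 8.61e-06) in ΔSE12313-b. With a pseudocount of 1 in place of 0.1 these values were 2.17 and 1.998. Between the deletions it was 0.20, with a 95% interval from -0.22 to 0.63 (adjusted p = 0.455). The longer transcript NM_001262, which begins at the start region printed above, had 8 and 6 reads in the controls, 125 to 154 in ΔE2 and 105 to 162 in ΔSE12313-b, so the choice of transcript did not alter the picture.

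CDKN2D encodes p19, an INK4 protein whose mRNA is known to change along the cell cycle, and lies at chr19:10677138-10679655 in band 19p13.2. The controls had 4.84 and 3.92 FPKM, from 70 and 54 reads. The ΔE2 clones had 5.28, 5.02 and 4.25 FPKM, and the ΔSE12313-b clones had 5.94, 5.57 and 5.63 FPKM. The ΔE2 clones overlapped the controls, whereas the ΔSE12313-b clones lay above every other library. Means were 4.38 ± 0.644 FPKM (SD, n = 2) for the controls, 4.85 ± 0.535 (SD, n = 3) for the ΔE2 clones and 5.71 ± 0.202 (SD, n = 3) for the ΔSE12313-b clones. CDKN2D had a log2 fold change of 0.15 (SE 0.13, adjusted p = 0.374) in ΔE2, with a 95% interval from -0.16 to 0.45. In ΔSE12313-b it was 0.38 (SE 0.13, adjusted p = 0.0343), which passed the test well under 2-fold, and relative to the median of all genes it was 0.11. This call was lost after centring (0.09, adjusted p = 0.582), after quantile normalization (0.12, adjusted p = 0.492), with voom (adjusted p = 0.0863), without the second control (adjusted p = 0.248) and without any single ΔSE12313-b clone (adjusted p = 0.0561 to 0.0901). The deletions differed by -0.24 (adjusted p = 0.175). Both transcripts of the gene had the same reads in every library.

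CDKN3 encodes the CDK-associated phosphatase and lies at chr14:54863673-54886934 in band 14q22.2. The controls had 1.14 and 2.39 FPKM, from 11 and 22 reads. The ΔE2 clones had 31.1, 27.1 and 31.0 FPKM, and the ΔSE12313-b clones had 29.7, 31.5 and 29.0 FPKM, from 322 to 453 reads. The clones formed a single narrow range far above the controls, which differed from each other by more than any clones of a deletion did in proportion. Means were 1.76 ± 0.887 FPKM (SD, n = 2), 29.7 ± 2.32 (SD, n = 3) and 30.1 ± 1.32 (SD, n = 3). CDKN3 had a log2 fold change of 4.08 (SE 0.25, adjusted p = 9.07e-06) in ΔE2 and of 4.10 (SE 0.25, adjusted p = 7.58e-06) in ΔSE12313-b. The direct difference was -0.02, with a 95% interval from -0.53 to 0.50 (adjusted p = 0.967). Its 3 transcripts followed the same pattern, with 11 to 25 reads in the controls and 322 to 496 in the clones.

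**Figure D2:**
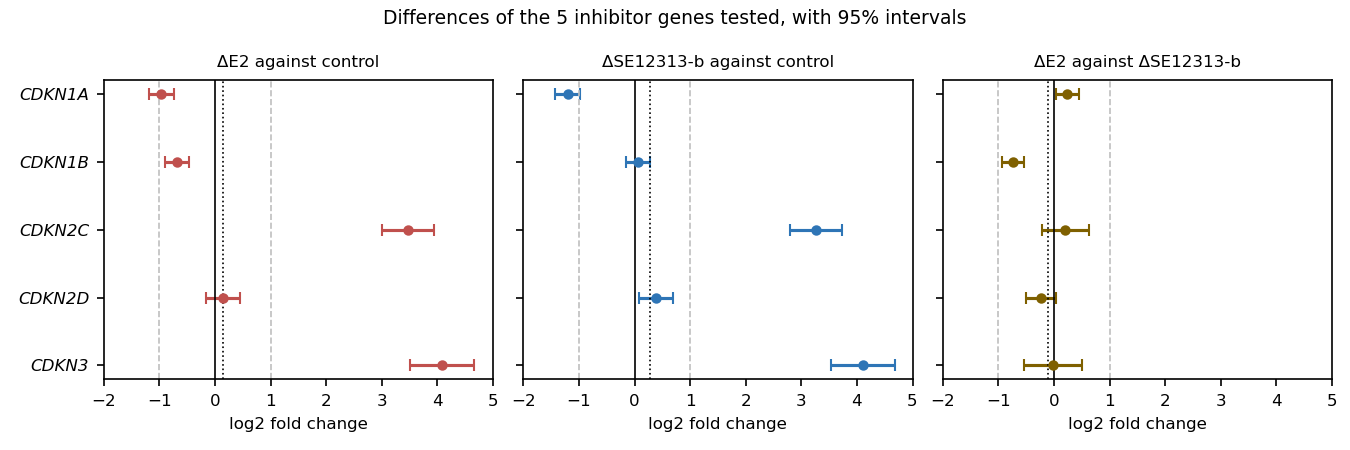
Log2 fold change of the 5 inhibitor genes tested, for each deletion against the controls and for the deletions against each other, as points with 95% intervals from the limma fit. The dotted line is the median of all genes tested and the dashed lines mark 2-fold. CDKN2C and CDKN3 lie beyond 2-fold with their whole intervals in both deletions, and CDKN1B alone lies clearly to the left of 0 between the deletions.

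Counted together, 2 of the 5 inhibitor genes tested were DEGs in ΔE2, both higher, beside 19.6% of all genes tested that were DEGs in either direction, 11.2% higher and 8.36% lower. In ΔSE12313-b 3 were DEGs, 2 higher and CDKN1A lower, beside 22.6% of all genes, 14.7% higher and 7.83% lower. An adjusted p under 0.05 at any size of change was reached by 4 of the 5 in ΔE2 (54.1% of all genes) and by 4 of the 5 in ΔSE12313-b (59.4% of all genes). With 5 genes, of which CDKN2C had to differ to be tested, these counts are given as a description. Both comparisons use the same 2 control libraries. Between ΔE2 and ΔSE12313-b no inhibitor gene was a DEG by limma on FPKM or by voom on the recovered reads, beside 4.23% of all genes, and 1 of the 5, CDKN1B, had an adjusted p under 0.05, beside 26.0% of all genes. At an unadjusted p under 0.05 there were 2, CDKN1A and CDKN1B, beside 38.8% of all genes, which is about the same share.

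The clones stood apart from the controls across the whole table. DEGs numbered 2697 in ΔE2 (1544 higher, 1153 lower), 3112 in ΔSE12313-b (2032 higher, 1080 lower) and 583 between the deletions (221 higher, 362 lower). The median log2 fold change of all genes was 0.14, 0.27 and -0.11, and after centring each library on its median ratio the balance turned to 1170 higher and 1464 lower, 1201 and 1570, and 287 and 244. Quantile normalization gave 1309 and 1384, 1400 and 1398, and 240 and 260. Relative to these medians CDKN1A was at -1.10 and -1.48 in ΔE2 and ΔSE12313-b, CDKN1B at -0.82 and -0.22, CDKN2C at 3.33 and 2.99, CDKN2D at 0.00 and 0.11, and CDKN3 at 3.94 and 3.83. ADAMTS18, the gene that SE12313 contacts, lies on chromosome 16, on which there is no inhibitor gene. It had 0.682 and 0.859 FPKM in the controls, 0.0870 to 0.149 in ΔE2 and 0.128 to 0.232 in ΔSE12313-b. Control libraries differed by little more than counting noise (chi-square per degree of freedom 1.18), whereas clones of a deletion differed by 3.83 to 21.7.

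Summed over the 8 genes, inhibitor mRNA was 102.8 ± 2.01 FPKM (SD, n = 2) for the controls, 91.0 ± 1.66 (SD, n = 3) for the ΔE2 clones and 91.6 ± 2.42 (SD, n = 3) for the ΔSE12313-b clones. Without any adjustment for the medians of all genes given above, the sums of the clones were thus below those of the controls. The make-up of the sum was different. CDKN1A made up 78.5% of it in control, 45.5% in ΔE2 and 38.2% in ΔSE12313-b, and CDKN3 made up 1.72%, 32.7% and 32.8%. CDKN1B made up 15.2%, 10.7% and 17.7%. The CIP/KIP genes alone summed to 94.8 and 97.8 FPKM in the controls and 49.0 to 55.5 in the clones, and the INK4 genes to 4.25 and 5.27 in the controls and 9.71 to 11.4 in the clones.

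**Figure D3:**
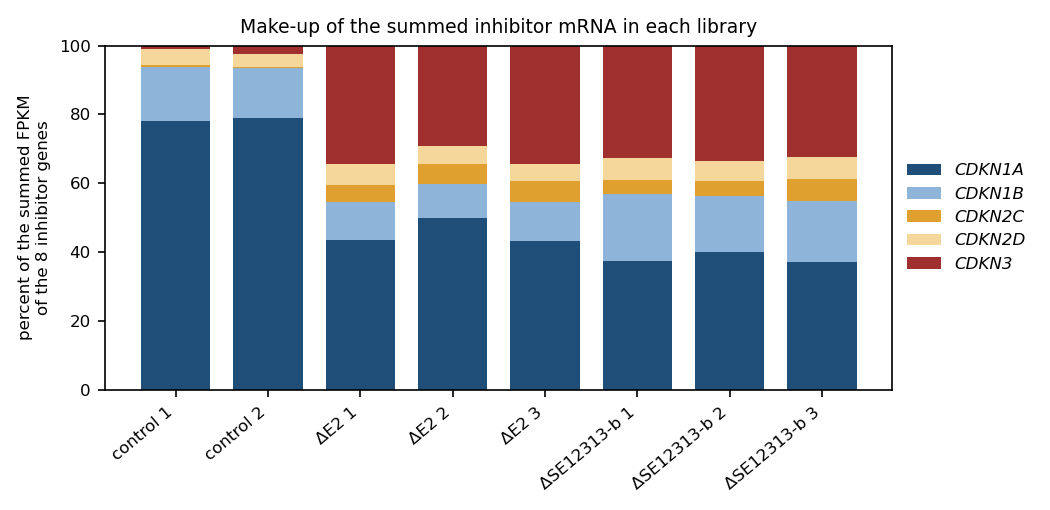
Share of each inhibitor gene in the summed FPKM of the 8 inhibitor genes, in percent, in each of the 8 libraries. CDKN1A takes 78.2% and 78.8% in the controls and 37.1% to 49.9% in the clones, CDKN3 takes 1.09% and 2.36% in the controls and 29.1% to 34.5% in the clones, and CDKN1C, CDKN2A and CDKN2B are too low to be drawn.

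In order of level, the controls ran CDKN1A, CDKN1B, CDKN2D, CDKN3, CDKN2C, and the ranges of no neighbours in this order overlapped. In ΔE2 the order was CDKN1A, CDKN3, CDKN1B, CDKN2C, CDKN2D, where CDKN2C and CDKN2D overlapped. The ΔSE12313-b clones ran CDKN1A, CDKN3, CDKN1B, CDKN2D, CDKN2C, where CDKN2D and CDKN2C again overlapped. Among all genes tested, CDKN3 stood at percentiles of 14.7 and 26.6 by level in the controls and of 83.6 to 86.7 in the clones. CDKN1A stood at 96.8 and 96.9 in the controls and between 85.8 and 91.5 in the clones.

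The kinases and cyclins that the inhibitors bind were followed as a list. This list and those below were chosen with earlier results of these data known. Of 11 kinase and cyclin genes tested, 10 were DEGs in ΔE2 and 9 in ΔSE12313-b, all higher. Their medians were 2.01 and 2.20 on the log2 scale (all genes 0.14 and 0.27). For the counts of all lists, the share of all genes tested that were higher DEGs was 11.2% in ΔE2 and 14.7% in ΔSE12313-b. The share of lower DEGs was 8.36% and 7.83%. CDK1, the mitotic kinase, had means of 2.85 FPKM in control, 47.9 in ΔE2 and 62.6 in ΔSE12313-b. CCNB2, a B-type cyclin, rose by 4.44 and 4.57 on the log2 scale, and CCNA2, the cyclin of S phase and G2, by 4.37 and 3.76. Set against CDKN1A, the level of CDK2 was 0.136 and 0.140 in the controls, 0.684 to 0.939 in ΔE2 and 0.938 to 1.15 in ΔSE12313-b, so that the ratio was higher in every clone than in either control. The proliferation markers, of which all 18 were DEGs in both deletions and all were higher, had medians of 4.03 and 4.16, and their summed level was 148.8 to 150.2 FPKM in control, 1104 to 1396 in ΔE2 and 1228 to 1375 in ΔSE12313-b. Their leading genes were RRM2, the small subunit of ribonucleotide reductase (log2 fold changes 6.50 and 6.30), and TK1, thymidine kinase (6.21 and 6.26). The values of CDKN3 and CDKN2C moved with this list, and its part in them was not tested. The study's own assays found less proliferation in both sets of clones than in control cells. They also found more cells in G0/G1 and fewer in S phase. Higher mRNA of these markers is not read here as faster division. Whether these assays used the cultures that gave the RNA is not stated, and the rate of division in the sequenced cells was not tested.

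**Figure D4:**
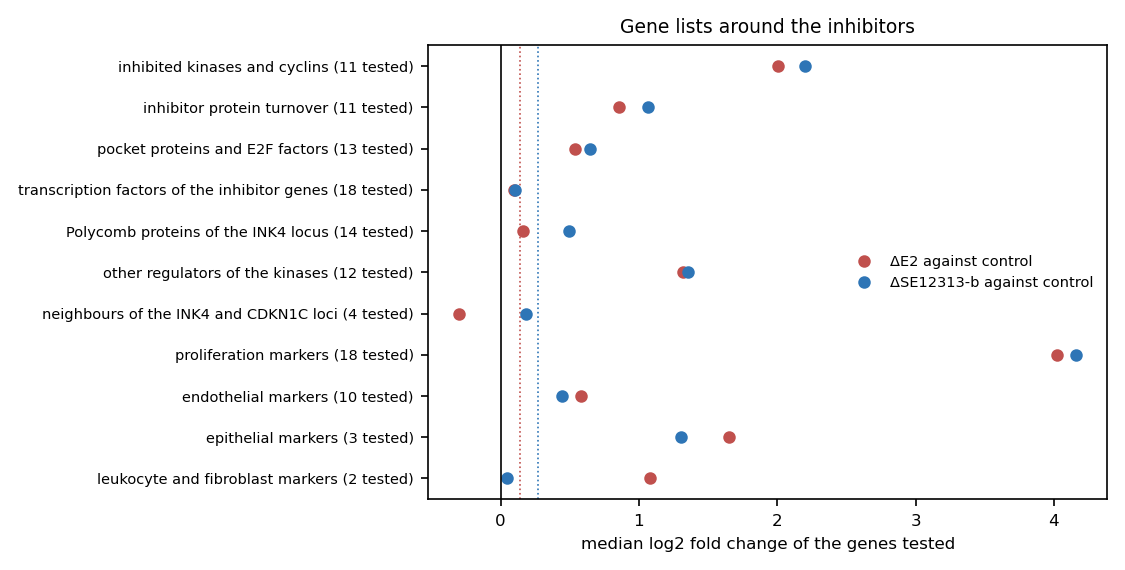
Median log2 fold change of the tested genes of 11 lists in ΔE2 and ΔSE12313-b against control, with the number tested beside each list. Dotted lines are the medians of all genes tested, 0.14 and 0.27. Proliferation markers lie at 4.03 and 4.16 and kinases and cyclins at 2.01 and 2.20.

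Proteins that destroy or bind the inhibitors were next. Of the 11 genes of inhibitor turnover, all tested, 5 were DEGs in ΔE2 and 6 in ΔSE12313-b, all higher, with medians of 0.86 and 1.07. PCNA and CDC20 of this list were counted among the proliferation markers as well. The same holds for CCNB1 of the kinases and cyclins, so these lists are not independent. DTL, which targets p21 for destruction on chromatin, rose by 4.37 and 4.39 on the log2 scale, and SKP2, the F-box protein for p27, had means of 4.34 FPKM in control, 16.6 in ΔE2 and 17.1 in ΔSE12313-b. CDC20, an activator of the anaphase-promoting complex, rose by 5.21 and 4.90. Of the 13 pocket proteins and E2F factors, 5 were DEGs and higher in each deletion, and E2F5 was the DEG that fell in ΔE2 (log2 fold change -2.39, SE 0.44, adjusted p = 0.00259). The list's medians were 0.54 and 0.65. Both controls of E2F8 and E2F2 were below 0.5 FPKM, so these genes, counted among the higher DEGs, were tested only because of the clones. E2F8, a repressor of E2F targets, rose by 4.45 and 4.14, and E2F2 had 3 and 2 reads in the controls against 237 to 381 in ΔE2 and 231 to 337 in ΔSE12313-b. Of 12 other regulators of the kinases, 7 were DEGs in ΔE2 and 8 in ΔSE12313-b, all higher, with medians of 1.32 and 1.36. PKMYT1 and CDC25C, like CDKN2C, were below 0.5 FPKM in both controls and had to differ to be tested. PKMYT1, a kinase that inhibits CDK1, rose by 4.55 and 5.34, and CDC25C by 4.34 and 4.25, though CDC25C is known as a phosphatase that activates CDK1.

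Transcription factors known to act on inhibitor genes included 18 that were tested, of which 2 were higher and 1 lower DEGs in ΔE2 and 2 were higher and 2 lower in ΔSE12313-b, with medians of 0.09 and 0.10. ID1, which opposes the E proteins that activate CDKN1A and CDKN2A, had means of 14.1, 65.2 and 58.3 FPKM in control, ΔE2 and ΔSE12313-b (log2 fold changes 2.20 and 2.04). CEBPB fell by 2.06 and 1.49. ETS1 rose by 1.33 in ΔE2, whereas HES1 rose by 1.39 and EGR1 fell by 2.44 in ΔSE12313-b. Of 14 genes that encode Polycomb proteins, known to silence the INK4 locus, or the demethylase KDM6B, known to oppose them, 3 were higher and 3 lower DEGs in ΔE2 and 2 and 3 in ΔSE12313-b, with medians of 0.16 and 0.50. EZH2, the methyltransferase of the complex, rose by 1.53 and 1.38 and CBX2 by 1.18 and 1.25, whereas CBX7 fell from 2.99 FPKM to 0.936 and 0.994 on average and KDM6B fell by 1.95 and 1.77. Of the 7 neighbours of the INK4 and CDKN1C loci 4 were tested, with 1 DEG in each deletion (SLC22A18 lower in ΔE2, NAP1L4 higher in ΔSE12313-b) and medians of -0.30 and 0.19.

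The labelled cell type was checked against markers. CDH5, the endothelial cadherin, had means of 102.6, 99.2 and 77.3 FPKM in control, ΔE2 and ΔSE12313-b, and ENG had 162.4, 213.9 and 224.4, whereas KDR was at most 0.201 FPKM on average and CLDN5 at 0 in all libraries. Of 10 endothelial markers tested, 3 were higher and 2 lower DEGs in ΔE2 (ERG and PECAM1 higher by 1.25 and 1.11, VWF and EMCN both at -1.72) and 2 were higher and 1 lower in ΔSE12313-b (PECAM1 by 2.10, ERG by 1.09, VWF by -1.80). Their summed level was 384.2 to 384.9 FPKM in control, 408.6 to 603.1 in ΔE2 and 380.0 to 544.9 in ΔSE12313-b, with medians of 0.58 and 0.44. Of the 8 epithelial markers 3 were tested, all keratins and all DEGs, with medians of 1.65 and 1.31. KRT7 rose by 1.85 and 1.31 and KRT8 by 1.65 and 1.65, the list summed to 360.8 to 362.9 FPKM in control, 1085 to 1210 in ΔE2 and 811.5 to 1069 in ΔSE12313-b, and CDH1 was at 0 in all libraries and EPCAM at most 0.398 FPKM on average. Keratins of this kind are also known from the A549 parent. Of 9 leukocyte and fibroblast markers 2 were tested, CD68 and LYZ, and the list summed to 28.3 to 30.2, 25.1 to 27.5 and 36.3 to 40.9 FPKM, nearly all of it CD68, with medians of 1.08 and 0.04. LYZ, a DEG in ΔE2 that was below 0.5 FPKM in both controls, had 2 to 6 reads in the controls and 20 to 69 in ΔE2, and CD3E, DCN and LUM were at 0 throughout. The part of these marker changes in the inhibitor values was not tested.

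Genes whose values ran most like each inhibitor over the 8 libraries were found by the Pearson correlation of log2(FPKM + 0.1), as a description. Libraries of the same group count towards such a correlation as a block, so it mostly reads the order of the 3 group means. The nearest to CDKN1A were CSAD (r = 0.996), MALAT1 (0.995) and ZNF805 (0.995). MALAT1, a nuclear noncoding RNA, was at 2588 and 2619 FPKM in the controls, 266.2 to 531.6 in ΔE2 and 151.8 to 293.6 in ΔSE12313-b. For CDKN1B they were HSF1 (0.997), TNRC18 (0.984) and MGAT4B (0.984), of which HSF1, the heat shock factor, had 66.5 and 63.5 FPKM in the controls, 42.4 to 47.4 in ΔE2 and 64.2 to 70.0 in ΔSE12313-b. CDKN2C ran most like POLE2, a subunit of DNA polymerase epsilon (0.998), ANAPC4, a subunit of the anaphase-promoting complex (0.997), and SNUPN (0.997). CDKN3 ran most like OIP5 (0.999), EXO1, a DNA exonuclease (0.999), and MYBL2, the B-Myb factor of dividing cells (0.998), and OIP5 was at 0.0640 and 0.202 FPKM in the controls and 5.08 to 6.45 in the clones. CDKN2D had the weakest likeness, with WDR7 (0.968), FRRS1 (0.939) and CEND1 (0.928). Both controls of OIP5, EXO1 and FRRS1 were below 0.5 FPKM, so these genes, like CDKN2C, were tested only because of the clones. MYBL2 and CEND1 reached 0.5 FPKM in a single control and needed the clones as well.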

How the data were processed

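The authors trimmed reads with Trim Galore 0.4.4, mapped them to GRCh37 with STAR 2.5.4b, per the labels, and deposited FPKM for 65572 RefSeq transcripts. The tool that wrote these FPKM and its handling of strands are not given in the sources used here. The authors' own DEGs came from featureCounts and edgeR, and were not used here. edgeR was not run here, and voom served as the count-based alternative.

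FPKM times transcript length came to whole multiples of 1 step in each library (99.997 to 99.998% of the values checked, within 0.1 read), which gave the reads. Transcripts with no gene name (42, with 0.0268 to 0.0344% of the reads) were left out. A gene was represented by its transcript of highest mean FPKM. Tests used limma 3.58.1 (R 4.3.3) and log2(FPKM + 0.1) of the 13789 genes with at least 0.5 FPKM in at least 2 libraries. All 8 libraries entered 1 model of 3 groups with a variance trend (two-sided, Benjamini-Hochberg adjustment over all genes tested). The limma fit, but not the other steps, was tried on simulated counts.

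The inhibitor genes and all lists were chosen with earlier results of these data known. Named were the inhibitor genes, the 2 DEGs of each list that rose most and the 2 that fell most in each deletion, the 3 genes most like each inhibitor, the neighbours of the INK4 and CDKN1C loci and any overlapping transcript. CDH5, ENG, KDR, CLDN5, CDH1, EPCAM, CD68, CD3E, DCN, LUM, SKP2, CDK2 and ADAMTS18 were named besides, after their values were seen. Some results are not reported here. Replicate numbers did not pair the libraries, since same-numbered libraries of different groups had correlations of -0.0804 to 0.107 in their deviations from the group means. The alternatives were pseudocounts of 0.01 and 1, other filters, centring, quantile normalization, a replicate block, each library left out, no variance trend, only the groups compared, every transcript, voom on the reads, 1.5-fold and an adjusted p under 0.01.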

Additional observations from a re-analysis of the deposited data

Results flagged for a closer look

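CDKN1B was marked for a closer look because its change differed between the deletions when the difference itself was tested. It was lower in ΔE2 than in ΔSE12313-b by a log2 difference of -0.73 (limma, adjusted p = 0.00130), with all 3 ΔE2 clones below all 3 ΔSE12313-b clones. Against the controls CDKN1B had a value of -0.68 without E2 and of 0.06 without SE12313-b on the log2 scale. The 17 other genes tested within 1 Mb had a median log2 difference of -0.50 in the same comparison (all genes -0.11), and their part in it was not tested.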

How the results depend on the processing

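Under the alternatives CDKN2C and CDKN3 were DEGs in both deletions and CDKN1A in ΔSE12313-b throughout. CDKN1A in ΔE2 crossed the 2-fold limit with a log2 fold change of -1.12 after centring and -1.34 after quantile normalization, and it ranged from -1.05 to -0.92 with 1 library left out, past the limit without the second ΔE2 clone. A limit of 1.5-fold made DEGs of CDKN1A (-0.96) and CDKN1B (-0.68) in ΔE2, where 4 inhibitor genes were then DEGs, and of CDKN1B (-0.73) between the deletions, where 1 was. Values near 0 changed sign. CDKN2D in ΔE2 was -0.012 after centring, -0.00089 after quantile normalization and -0.0014 to 0.29 with 1 library left out, below 0 without the second control. CDKN1B in ΔSE12313-b was -0.23 and -0.34 and ranged from -0.015 to 0.13, below 0 without the second control or the first ΔSE12313-b clone. CDKN3 between the deletions was 0.11 and 0.11 and -0.053 to 0.048. All DEGs numbered 1718 in ΔE2, 2004 in ΔSE12313-b and 240 between the deletions with a pseudocount of 1, 7360, 8670 and 1648 with every transcript as a feature, 5053, 5802 and 1631 at 1.5-fold, and 383 between the deletions at an adjusted p under 0.01. A replicate block gave 2530, 2962 and 523 and changed no call of an inhibitor gene, and since the numbers do not pair the libraries this is no paired analysis. Beyond what an alternative's own construction shows (more features, a lower limit), the cause was not tested. With 2 control libraries, and 5 to 22 reads behind the control values of CDKN2C and CDKN3, the size of their folds is known less well than their direction: CDKN3 ranged from 3.58 to 4.61 with 1 library left out, and a pseudocount of 1 gave CDKN2C 2.17 (ΔE2) and 1.998 (ΔSE12313-b), against 3.47 and 3.27 with 0.1.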
